A study of Mus musculus with 6 samples.

Results

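The genes described here encode the proteins of the mitochondrial ribosome. They were taken from a table of FPKM (fragments per length of transcript and per depth of library) in 6 RNA libraries of mouse CD4 T cells, as every gene whose deposited symbol starts with Mrpl or Mrps followed by a digit. The rule found 85 transcripts of 76 genes, among 24011 genes in the table, and the FPKM of a gene's transcripts were summed. Of the 76 genes, 47 carry the name Mrpl and 29 the name Mrps. All 76 were among the 11224 genes tested, which had at least 1 FPKM in at least 2 libraries.

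The mitochondrial ribosome translates the few messenger RNAs of the mitochondrial genome, all of which encode subunits of the respiratory chain and of ATP synthase. Its ribosomal RNA is transcribed in the mitochondrion, whereas its proteins are encoded in the nucleus, translated in the cytosol and imported, so that it is assembled from the products of both genomes. Some of its proteins descend from bacterial ribosomal proteins and others were added later in evolution. T cells that are activated through their antigen receptor are known to build mitochondria, and regulatory T cells are known for their use of oxidative phosphorylation.

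The libraries were made from C57BL/6 mice, from cells sorted out of lymph nodes and spleens. WT libraries came from wild-type mice and cKO libraries from YAP cKO mice (YAP flox/flox,CD4-Cre+), in which Cre under the CD4 promoter acts in all cells of the T lineage that have expressed CD4, and not in regulatory T cells alone. Whether the wild-type mice carried the Cre, the age of the mice and the number of mice behind a library are not given in the sources used here. Each genotype gave naive CD4 T cells (CD4+ CD62L+ CD25-), natural regulatory T cells frozen right after the sort (fresh nTreg; CD4+, CD25 high, CD62L positive or negative), and nTregs stimulated in culture with 2 µg/ml of plate-bound antibody to CD3, 2 µg/ml of soluble antibody to CD28 and 100 U/ml of IL-2. The labels give the stimulation as 24 h in the treatment fields and as 48 h in the extraction text. No nTregs were cultured without stimulation. In the changes given below as on stimulation, time in culture, IL-2 and the antibodies therefore cannot be told apart. There was 1 library for each of the 6 groups, so p-values measure the spread between libraries of the 2 genotypes and not the spread between mice.

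Yap1, the targeted gene, was listed at 0 FPKM in the naive and fresh nTreg libraries of both genotypes and was at 0.169 FPKM in the WT and 0.235 FPKM in the cKO library of stimulated nTregs, so it did not bear out the genotype labels, and cKO below means the library labelled so. The columns read as cKO carry another abbreviation and were assigned by elimination. Foxp3, the lineage factor of regulatory T cells, was at 2.98 to 3.30 FPKM in naive cells and at 45.9 to 57.8 FPKM in the 4 nTreg libraries, and the sum of 4 measured T cell markers was 607 to 1253 FPKM. The steps between low values placed the worth of 1 fragment on a transcript of 1 kb at about 0.104 to 0.135 FPKM. With transcript lengths from matched GENCODE models, the 76 genes rested on a median of about 215 fragments in a library and on at least about 31.0. These depths are estimates that cover counting error only.

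The start regions of these genes were read from RefSeq on GRCm38.p6, the assembly that mm10 names, and 67 of the 76 genes matched an entry. The 6 motifs were searched on both strands from 250 bases before to 50 bases after the start. They were the binding letters of ETS factors such as GABP (CCGGAAG), of NRF1 (its full palindrome, and a core that leaves 1 base free and so contains the former), of YY1, the E-box of Myc and related factors (CACGTG) and the GC box of Sp factors (GGGCGG). GABP, NRF1 and YY1 are known regulators of nuclear genes for mitochondrial proteins. The ETS letters occurred in 24 of 67 members (35.8%), in 21.98% of tested genes and in 9.93% of all genes with an entry. The YY1 letters occurred in 5 members (7.46%), against 2.69% of tested genes, and the full NRF1 letters in 3 members (4.48%), against 2.48%. The NRF1 core occurred in 12 members (17.9%), against 12.3%. The shares of the other motifs were 7.46% against 12.1% of tested genes for the E-box and 49.3% against 68.8% for the GC box. A match is a description of letters and was not tested for binding.

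The sites of the 2 longest motifs are shown because their letters and flanks can then be compared, 30 bases each, 5′ to 3′ along the gene's strand, with the motif in capitals. The YY1 letters start 24 bases into Mrpl35, 27 into Mrpl37, 12 into Mrps18a and 15 into Mrps27 by the table's start, and at -109 in Mrps11, where they lie on the other strand. With the window limited to the 250 bases before the start, 1 member, Mrps11, kept a match. That site also lies within the annotated span of Mrpl46 (chr7:78775341-78783089), a member on the opposite strand.
Mrpl35: ggcaggctgcAAGATGGCGGcttccatctt
Mrpl37: tgcacgggcaAAGATGGCGGcgtccaggta
Mrps11: cctacgggcgCCGCCATCTTtctgtcttcc
Mrps18a: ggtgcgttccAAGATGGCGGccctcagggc
Mrps27: ggtgcgctccAAGATGGCGGctcccatggt

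These sites lie at chr6:71823742-71823771 (- strand, Mrpl35), chr4:107066821-107066850 (- strand, Mrpl37), chr7:78783012-78783041 (+ strand, Mrps11), chr17:46111005-46111034 (+ strand, Mrps18a) and chr13:99344790-99344819 (+ strand, Mrps27). The NRF1 letters are palindromic and lie before the start in all 3 genes, beginning at -87 in Mrpl32, -125 in Mrpl39 and -28 in Mrpl9.
Mrpl32: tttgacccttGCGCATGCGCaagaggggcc
Mrpl39: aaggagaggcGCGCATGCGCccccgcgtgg
Mrpl9: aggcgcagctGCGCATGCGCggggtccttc

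The NRF1 sites lie at chr13:14613105-14613134 (- strand), chr16:84735350-84735379 (- strand) and chr3:94443298-94443327 (+ strand). The 3 whole upstream regions of 250 bases shown next are those of Mrps6, Mrpl47 and Mrps22, which had 3 of the 4 largest changes on stimulation. They lie at chr16:92058086-92058335 (+ strand), chr3:32736756-32737005 (- strand) and chr9:98601680-98601929 (- strand), and capitals mark every match to the searched letters.
Mrps6: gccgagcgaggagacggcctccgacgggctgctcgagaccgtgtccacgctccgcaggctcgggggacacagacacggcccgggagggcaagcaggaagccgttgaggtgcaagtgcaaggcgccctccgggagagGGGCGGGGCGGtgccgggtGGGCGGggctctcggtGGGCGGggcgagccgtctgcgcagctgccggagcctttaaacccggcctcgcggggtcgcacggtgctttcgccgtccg
Mrpl47: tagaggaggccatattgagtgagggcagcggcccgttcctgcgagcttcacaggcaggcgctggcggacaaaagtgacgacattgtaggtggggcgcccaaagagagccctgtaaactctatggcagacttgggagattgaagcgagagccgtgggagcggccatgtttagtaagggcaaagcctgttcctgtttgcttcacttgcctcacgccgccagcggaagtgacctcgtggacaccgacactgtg
Mrps22: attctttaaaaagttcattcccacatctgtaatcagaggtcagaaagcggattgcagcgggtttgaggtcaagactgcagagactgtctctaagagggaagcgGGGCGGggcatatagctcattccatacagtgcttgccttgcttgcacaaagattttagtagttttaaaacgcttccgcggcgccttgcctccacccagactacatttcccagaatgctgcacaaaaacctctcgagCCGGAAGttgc

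The Mrps6 region held 4 GC boxes, the first 2 sharing 1 base, and none of the other letters. The Mrps22 region held 1 GC box and 1 ETS match at -11 to -5, and the Mrpl47 region held no match. Among the members with an entry, the ETS letters occurred in 9 of 28 that rose on stimulation and in 15 of the other 39.

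The 76 genes lie on 17 chromosomes. A protein-coding gene on the opposite strand was counted as starting within 1000 bases, head to head, for 17 of the 76 (22.4%), compared with 11.2% of 10432 tested protein-coding genes. Mrpl46 and Mrps11 lie on opposite strands with overlapping annotated exons and were not among the 17. Both shares may therefore leave out pairs whose starts overlap. The partners included Psma2, a proteasome subunit, 75 bases from Mrpl32, Fau, the precursor of a cytosolic ribosomal protein, 59 bases from Mrpl49, and Sars2, the mitochondrial seryl-tRNA synthetase, 172 bases from Mrps12. The partners did not share the members' levels or changes throughout. Fau was at 1261 FPKM or more in every library and fell on stimulation (log2 change -0.44, limma adjusted p = 0.0155), while Mrpl49 was at 16.7 to 23.2 FPKM and was not called (0.11 ± 0.10 SE, limma adjusted p = 0.425). Ncapd2, a condensin subunit that starts 100 bases from Mrpl51, rose with it (0.70 and 0.80, respectively), as did Zfp189 with Mrpl50 (0.80 and 0.63). Klc4 and Hira fell (-0.50 and -0.37, limma adjusted p = 0.0427 and 0.0425), while their neighbours Mrpl2 (0.50) and Mrpl40 (0.61) rose. Pnpla7 fell too (-0.41, limma adjusted p = 0.0106), beside a rise of Mrpl41 (0.48).

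All 76 genes were at 1 FPKM or more in all 6 libraries, which held for 84.7% of the genes tested, and 74 were at 5 FPKM or more in all 6, against 62.6%. With the deposited FPKM, the level of a gene varied little between libraries. The ratio of its highest to its lowest library had a median of 1.54, against 1.85 over all genes tested, and was under 2 for 61 of 76 members, against 55.2%. These ratios depend on the scale of the libraries. With every library set to an equal FPKM sum, the members summed to 1709 in WT naive cells and to 3378 in stimulated cKO nTregs. Differences between the genes were wider, from a mean of 3.62 FPKM for Mrpl17 to 114 FPKM for Mrpl33. FPKM is given per length of transcript, so levels of different genes can be set side by side on this scale, as far as the transcript models are right. The matched model has 7300 bases for Mrpl17 and 478 for Mrpl33. By these models Mrpl17 rested on about 183 to 329 fragments in a library and Mrpl33 on about 230 to 383.

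The 5 genes with the highest mean were Mrpl33, Mrpl52, Mrpl30, Mrps21 and Mrps16, of which Mrpl33, Mrpl30, Mrps21 and Mrps16 have counterparts in bacteria. Mrpl33, a large-subunit protein, was at 114 FPKM in naive cells of WT and 114 of cKO mice, 108 and 123 in freshly sorted nTregs, and 97.4 and 125 after stimulation. The libraries overlapped without order. Mrps16, a small-subunit protein whose loss in people is known to impair mitochondrial translation, was at 78.4 and 66.0 FPKM in naive cells, 76.7 and 67.3 in freshly sorted nTregs, and 63.3 and 91.2 after stimulation, WT first here and below. The means of Mrpl52, Mrpl30 and Mrps21 were 95.1, 87.3 and 83.9 FPKM. A near-identical copy elsewhere in the genome could take or give fragments for Mrps21 and for 6 other members (Mrpl22, Mrpl23, Mrpl27, Mrpl42, Mrps10 and Mrps36), so their levels are uncertain.

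The 5 genes with the lowest mean were Mrpl17, Mrpl35, Mrpl11, Mrpl19 and Mrps27. Mrpl17 ranged from 3.18 to 4.80 FPKM, with the highest value in stimulated cKO nTregs. Mrpl35, Mrpl11 and Mrpl19 had means of 6.02, 6.23 and 6.30 FPKM, which lay within the spread of each gene over the libraries. Mrps27, a pentatricopeptide repeat protein of the small subunit, ranged from 5.78 to 9.02 FPKM. Mrpl12, which forms the flexible stalk that recruits translation factors and is present in several copies in each ribosome, was not among the highest, with a mean of 26.5 FPKM.

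Summed over the 76 genes, the FPKM were 2148 in WT and 2142 in cKO naive cells, 1977 and 2026 in freshly sorted nTregs, and 2215 and 2610 after stimulation. The sum was lowest in the fresh nTreg libraries and highest in the stimulated cKO library. The FPKM sum over all genes differed too, with 968967 and 962865 in naive cells, 837179 and 843887 in freshly sorted nTregs, and 534274 and 595524 after stimulation. With every library set to an equal FPKM sum, the 76 genes summed to 1709 and 1715, 1820 and 1851, and 3196 and 3378. On that scale the naive libraries were lowest. Values of single genes in the text are the deposited FPKM, and the order or overlap of their populations can depend on the scale. The proteins of the large subunit held 65.2% and 65.5% of the members' sum in naive cells, 65.3% and 65.9% in freshly sorted nTregs, and 63.7% and 64.4% after stimulation, and this share does not depend on the scale of a library.

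**Figure D1:**
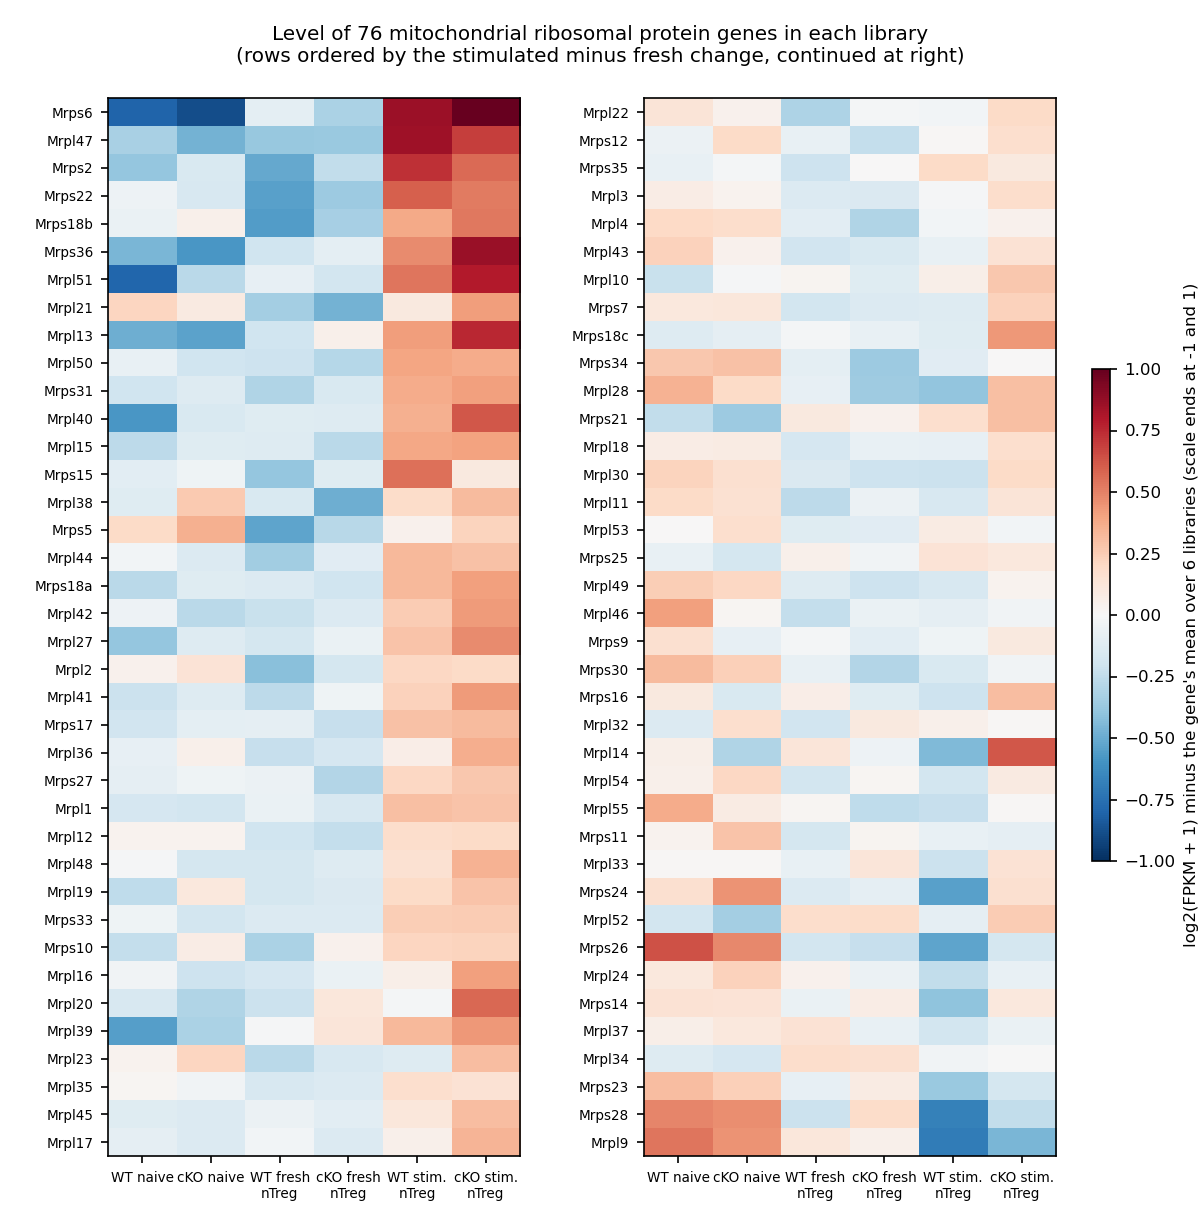
Rows are the 76 genes and columns the 6 libraries. Colour gives log2(FPKM + 1) minus the gene's mean over the 6 libraries, red above and blue below it, and rows are ordered by the stimulated minus fresh change. The stimulated columns are red in the upper rows, such as Mrps6 and Mrpl47, and blue in the lowest ones, Mrps28 and Mrpl9.

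On stimulation, 32 of the 76 mitochondrial ribosomal protein genes rose and 2 fell (limma on log2(FPKM + 1), additive in population and genotype, Benjamini-Hochberg adjusted p under 0.05 over the 11224 genes). Across all genes tested, 22.5% rose and 27.3% fell. The members' median log2 change was 0.26, against -0.05 for all genes, and 64 of 76 were above 0, against 46.7% of all genes. At an unadjusted p under 0.05 there were 40 members, against 56.6% of all genes. The groups were free of overlap, with both stimulated libraries above both fresh nTreg libraries, in 47 members (33.8% of all genes) and with both below in 5 (40.1%).

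The scale of the libraries moves these counts. Under equal FPKM sums, the median of all genes moved from -0.05 to 0.46, 73 members rose (58.6% of all genes) and 0 fell (9.15%). The members' median was then 0.80, and 75 were above 0, against 79.5% of all genes. Relative to all genes, the members' median lay 0.31 higher with the deposited FPKM, 0.34 higher with equal sums and 0.31 higher with equal medians. In libraries of this kind, more RNA per cell and a larger share of cells that hold the RNA cannot be told apart. Fewer genes were listed at 0 after stimulation (4122 and 4872, against 9312 and 9110 in fresh nTregs). Whether these trace values had a part in the members' changes was not tested.

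Among the proteins of the small subunit, 11 of 27 rose and 1 fell, with a median of 0.24. Mrps6, the counterpart of bacterial S6, had the largest change of all members. It was at 18.6 and 17.3 FPKM in naive cells, 30.7 and 26.3 in freshly sorted nTregs, and 60.6 and 79.9 after stimulation. The 3 populations did not overlap, and the change on stimulation was 1.26 ± 0.15 (log2, SE, limma adjusted p = 0.00139). Mrps6 (chr16:92058336-92112227) shares its locus with Slc5a3, a myo-inositol transporter gene, which was at 7.50 and 5.95 FPKM in naive cells, 13.9 and 13.5 in freshly sorted nTregs, and 23.5 and 24.2 after stimulation. Of the exon bases of Mrps6, 19.9% overlap another annotated gene on the same strand, Gm49711, so part of its fragments could not be assigned with certainty.

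Mrps2, the counterpart of bacterial S2, was at 8.28 and 9.91 FPKM in naive cells, 7.52 and 9.22 in freshly sorted nTregs, and 19.1 and 17.0 after stimulation (1.03 ± 0.13 SE, limma adjusted p = 0.00189). Mrps22, a small-subunit protein without a bacterial counterpart, was at 13.8 and 12.7, 9.49 and 10.9, and 22.1 and 20.96 FPKM in the same order (1.01 ± 0.11 SE, limma adjusted p = 0.000957). In both genes, the stimulated libraries stood above the other 4. Mrps18b was at 20.9 and 22.7, 14.6 and 17.2, and 28.8 and 32.1 FPKM (0.90 ± 0.08 SE, limma adjusted p = 0.000608).

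Mrps36 was at 16.7 and 15.2 FPKM in naive cells, 20.1 and 21.6 in freshly sorted nTregs, and 32.7 and 43.2 after stimulation (0.82 ± 0.13 SE, limma adjusted p = 0.00404). Its name comes from its first assignment to the ribosome, and its product has since been found in the alpha-ketoglutarate dehydrogenase complex of the citric acid cycle. By its name it is kept in the counts of the small subunit and of members without a bacterial counterpart. Near-identical pseudogene copies of Mrps36 make its level uncertain. Mrps28 was the member of the small subunit that fell, from 13.2 and 17.7 FPKM in freshly sorted nTregs to 9.29 and 12.9 after stimulation (-0.45 ± 0.14 SE, limma adjusted p = 0.036). On the equal-sum scale its change was 0.09, so its direction depends on the scale.

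Among the proteins of the large subunit, 21 of 49 rose and 1 fell, with a median of 0.29. Mrpl47, the counterpart of bacterial L29 next to the exit of the peptide tunnel, was at 10.0 and 8.94 FPKM in naive cells, 9.57 and 9.64 in freshly sorted nTregs, and 23.8 and 21.3 after stimulation (chr3:32727497-32736755). Naive cells and fresh nTregs overlapped, and both stimulated libraries lay above them (1.15 ± 0.10 SE, limma adjusted p = 0.000488). Mrpl51 was at 9.64 and 14.3, 16.4 and 15.2, and 25.6 and 30.9 FPKM (0.80 ± 0.15 SE, limma adjusted p = 0.00749). Mrpl13, the counterpart of L13, was at 34.6 and 33.5, 42.5 and 50.9, and 65.7 and 83.3 FPKM (0.66 ± 0.11 SE, limma adjusted p = 0.00444). Its 3 populations did not overlap.

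Mrpl21 was at 20.5 and 18.7 FPKM in naive cells, 13.6 and 12.4 in freshly sorted nTregs, and 18.8 and 23.8 after stimulation (0.66 ± 0.14 SE, limma adjusted p = 0.00934). It was thus lowest in the fresh nTregs, and the stimulated and naive libraries overlapped. Mrpl50 was at 13.1 and 12.0, 11.9 and 11.2, and 18.5 and 18.2 FPKM (0.63 ± 0.09 SE, limma adjusted p = 0.00283). Mrpl12, the stalk protein, also rose, from 22.7 and 22.2 FPKM in freshly sorted nTregs to 29.9 and 30.2 after stimulation (0.40 ± 0.08 SE, limma adjusted p = 0.0078). The other members that rose had log2 changes between 0.31 for Mrpl23 and 0.62 for Mrps31.

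Mrpl9, the counterpart of bacterial L9, went the other way. It was at 63.4 and 59.9 FPKM in naive cells, 47.3 and 45.2 in freshly sorted nTregs, and 26.4 and 31.4 after stimulation, with no overlap between the populations (-0.66 ± 0.10 SE, limma adjusted p = 0.00344). With equal FPKM sums its change was -0.10 and was no longer called (limma adjusted p = 0.34), while the median of all genes was then 0.46. The members with the smallest changes were Mrps11, with a change of 0 to 2 decimals, Mrpl55 (0.01), Mrpl54 (0.03), Mrpl14 (0.05) and Mrpl33 (-0.06).

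**Figure D2:**
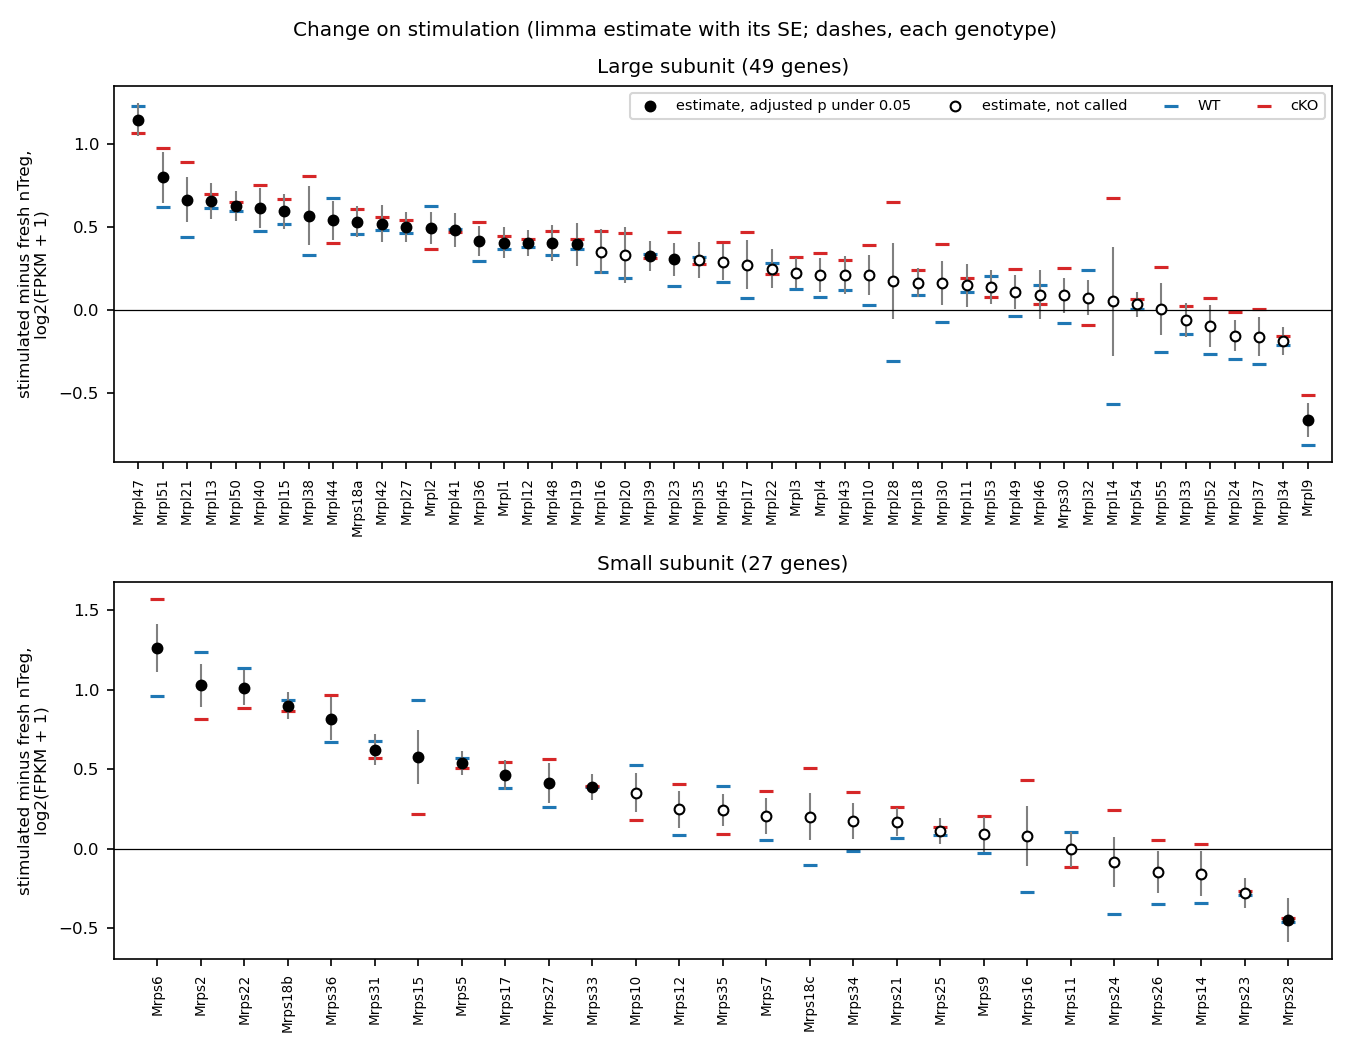
Each column is a gene, with the stimulated minus fresh change in log2(FPKM + 1) on the vertical axis, large-subunit genes above and small-subunit genes below. Circles are the limma estimates with their SE, filled where the adjusted p was under 0.05, and dashes are the change in the WT (blue) and the cKO (red) pair of libraries. Filled circles above 0 number 21 in the large and 11 in the small subunit, and 1 in each subunit lies below 0.

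In 46 members with a bacterial counterpart, Mrpl47 among them, 16 rose and 2 fell, with a median of 0.24. Of the 30 without one, 16 rose and 0 fell, with a median of 0.36. Mrpl47 was first placed in the class without a counterpart, and with it there the counts of members that rose were 15 of 45 and 17 of 31. The 30 include Mrps18a and Mrps18b, relatives of bacterial S18, and with these also counted as having a counterpart, 18 of 48 and 14 of 28 rose. The difference between the classes was not tested. The 3 genes of the Mrps18 family, all related to bacterial S18, take 3 different places in the ribosome. Mrps18c, which sits where S18 does, was at 51.9 and 53.4, 56.2 and 53.9, and 52.4 and 77.0 FPKM and was not called (0.20 ± 0.15 SE, limma adjusted p = 0.302). Mrps18a, a protein of the large subunit, was at 18.0 and 20.0, 19.8 and 18.9, and 27.6 and 29.3 FPKM and rose (0.53 ± 0.09 SE, limma adjusted p = 0.0052), as did Mrps18b. Mrps18c had the highest FPKM of the 3 in every library, but 23.2% of its exon bases overlap another gene on the same strand, so its level is uncertain.

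The calls rest on few libraries. Of the 32 members that rose, 10 (Mrpl13, Mrpl47, Mrpl50, Mrps18b, Mrps2, Mrps22, Mrps31, Mrps36, Mrps5 and Mrps6) were called with each of the 6 libraries left out in turn, as was Mrpl9 of the 2 that fell. Without the WT fresh nTreg library 18 members were called higher (12% of all genes) and 1 lower (13.8%). Without the cKO fresh nTreg library 14 were higher (11.8%) and 1 lower (15.1%). Without the WT stimulated library 40 were higher (21.4%) and 1 lower (24.1%), and without the cKO stimulated library 30 were higher (19.4%) and 8 lower (26.4%). A group left with 1 library was taken to vary like the others. Leaving out either naive library left the members' median at 0.26, since this comparison does not use the naive values for its estimates. The share of all called genes that kept their calls is not given, here or for fresh nTregs against naive cells.

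Other genes of the mitochondrial translation pathway were examined in lists. Of 16 translation factors tested, 5 rose and 0 fell, with a median of 0.17. Mrrf, the ribosome recycling factor, was at 8.10 and 8.07 FPKM in naive cells, 5.60 and 4.65 in freshly sorted nTregs, and 12.3 and 14.9 after stimulation (1.25, limma adjusted p = 0.0011), the lowest in fresh nTregs like Mrpl21. Mtrf1l, a release factor, Slirp, which stabilises mitochondrial messenger RNA, and Gfm1, an elongation factor, rose by 0.63, 0.59 and 0.40. Of 6 mitoribosomal proteins with other names, Chchd1, Gadd45gip1 and Ptcd3 rose and Dap3, a GTP-binding protein of the small subunit, fell (-0.33). Of 26 assembly and rRNA modification factors, 4 rose, among them Mterf4 (0.85) and Mrm3 (0.84), and 2 fell (Trmt61b and Mettl17). The 17 mitochondrial aminoacyl-tRNA synthetases had a median of -0.09, with 2 higher (Pars2 and Rars2) and 3 lower (Ears2, Cars2 and Fars2).

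Of 12 genes for mitochondrial transcription and DNA maintenance, 6 rose, with Tefm, an elongation factor of transcription, at 0.81, and Polg2, the accessory subunit of the DNA polymerase, fell (-1.12). The 85 cytosolic ribosomal protein genes had a median of -0.19, with 4 higher and 20 lower, and the 77 nuclear subunits of oxidative phosphorylation a median of 0.12, with 16 higher and 9 lower. Less the median of all genes, these medians were -0.14 and 0.16, against 0.31 for the mitochondrial ribosomal protein genes. Under equal FPKM sums the cytosolic ribosomal protein median turned to 0.39, still below that of all genes. Of 8 regulators of such genes, Myc rose, from 21.7 and 27.1 FPKM in freshly sorted nTregs to 93.1 and 87.0 after stimulation (1.85, limma adjusted p = 0.000503), and Esrra, Yy1 and Nrf1 fell with the deposited FPKM (-0.62, -0.39 and -0.37). Of 20 proliferation genes 18 rose, with a median of 1.54, and their median level in a library went from 4.69 and 6.04 to 14.7 and 23.9 FPKM. The part of proliferation in the members' changes was not tested.

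**Figure D3:**
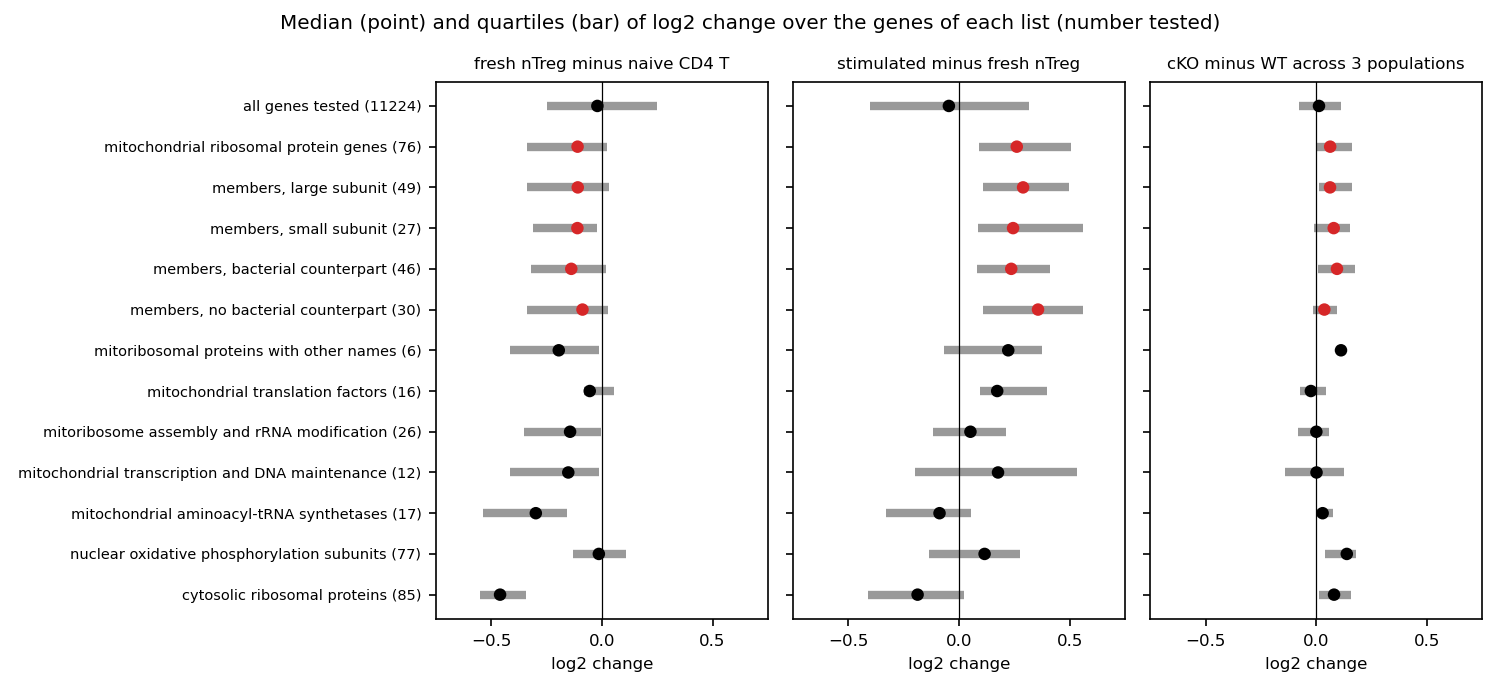
Points are the median and bars the quartiles of the log2 change over the genes of each list, for the 3 comparisons, with the number of genes tested in brackets and the mitochondrial ribosomal protein genes and their classes in red. In the stimulated minus fresh panel the 76 genes have a median of 0.26 and all genes one of -0.05.

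Between freshly sorted nTregs and naive CD4 T cells, 6 of the 76 genes were higher and 12 lower in nTregs (limma, adjusted p under 0.05), while 16.5% of all genes tested were higher and 14.7% lower. The members' median log2 difference was -0.11, against -0.02 for all genes, and 23 of 76 were above 0, against 47.7% of all genes. On the equal-sum scale, 10 members were higher (24.4% of all genes) and 2 lower (5.99%), and the members' median turned to 0.07, with all genes at 0.15. The members' median less that of all genes was -0.09 with the deposited FPKM and -0.08 with equal sums. At an unadjusted p under 0.05 there were 29 members, against 43.6% of all genes. The calls also rest on single libraries. Without the WT naive library 2 members were called higher (11.2% of all genes) and 1 lower (5.34%), and without the cKO naive library 1 (10.4%) and 4 (5.44%). Without the WT fresh nTreg library 0 were higher (8.48%) and 3 lower (4.14%), and without the cKO fresh nTreg library 1 (8.58%) and 1 (3.29%). Leaving out the WT or the cKO stimulated library gave 7 higher (20.2% and 20.3%, respectively) and 23 lower (20.8% and 20.9%). Both fresh nTreg libraries lay below both naive libraries for 37 members (37.7% of all genes) and above them for 13 (33.2%). For 18 members both fresh nTreg libraries lay below all of the other 4 (10.1% of all genes).

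The member with the largest deficit in nTregs was Mrps26, a small-subunit protein without a bacterial counterpart. It was at 51.3 and 45.8 FPKM in naive cells, 28.6 and 27.7 in freshly sorted nTregs, and 22.3 and 28.8 after stimulation. With the deposited FPKM the naive libraries stood above the other 4, and the difference between fresh nTregs and naive cells was -0.76 ± 0.13 SE (limma adjusted p = 0.00887). Mrps5, the counterpart of bacterial S5, was at 37.7 and 42.4, 22.5 and 27.0, and 34.0 and 38.8 FPKM (-0.68 ± 0.08 SE, limma adjusted p = 0.00199). On stimulation Mrps5 was called higher (0.54 ± 0.08 SE, limma adjusted p = 0.00259), in a comparison that shares the fresh nTreg libraries with this one, and its stimulated and naive libraries overlapped. These were the 2 members also called lower with equal FPKM sums (-0.57 for Mrps26 and -0.48 for Mrps5). Mrps5 was the only one of the 6 higher and 12 lower members that was called with each library left out in turn.

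The other members lower in fresh nTregs were Mrpl21 (-0.56), Mrps34 (-0.51), Mrps28 (-0.49), Mrps30 (-0.46), Mrps18b (-0.44), Mrpl9 (-0.41), Mrpl49 (-0.39), Mrpl4 (-0.39), Mrpl2 (-0.38) and Mrpl23 (-0.34), with limma adjusted p between 0.0124 and 0.0443. Mrps30 sits in the large subunit despite its name. Mrps34 was at 23.2 and 23.6 FPKM in naive cells and 17.7 and 14.6 in freshly sorted nTregs, and 37% of its exon bases overlap another gene on the same strand. A gene on the other strand, Mapk8ip3, overlaps 63.4% of them. Such overlaps of over 10% were found for 13 members, among them Mrps25 (69.8%), Mrps18b (30.5%) and Mrpl47 (13.9%). Whether strand was used to assign their fragments was not tested.

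The 6 members higher in fresh nTregs were Mrps6 (0.63 ± 0.15 SE), Mrpl39 (0.49 ± 0.09), Mrpl52 (0.44 ± 0.13), Mrpl13 (0.44 ± 0.11), Mrps21 (0.37 ± 0.09) and Mrpl34 (0.31 ± 0.08), and all 6 were also called higher with equal FPKM sums. Mrpl39, a large-subunit protein related to threonyl-tRNA synthetase, was at 10.95 and 13.1 FPKM in naive cells, 16.3 and 18.0 in freshly sorted nTregs, and 20.8 and 22.6 after stimulation. Its 3 populations did not overlap. Mrpl34, the counterpart of L34, was at 18.9 and 18.3 FPKM in naive cells, 23.5 and 23.2 in freshly sorted nTregs, and 20.2 and 20.7 after stimulation. With the deposited FPKM it was highest in the fresh libraries, an order that depends on the scale of the libraries. Mrps16, Mrpl16, Mrpl15, Mrps17 and Mrpl33 had the smallest differences, from -0.01 to 0.01.

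Some B cell markers moved with this comparison. Cd74, the invariant chain of antigen presentation, was at 4.14 and 4.26 FPKM in naive cells, 30.6 and 26.0 in freshly sorted nTregs, and 4.13 and 6.13 after stimulation. Cd79b, a chain of the B cell receptor complex, was at 0.883 and 0.428, 12.0 and 11.2, and 4.58 and 2.63 FPKM. Both were highest in the freshly sorted nTregs, while Cd79a, the partner chain of Cd79b, was at 0.718 to 1.33 FPKM and Ms4a1 at 0.165 FPKM at most over the 6 libraries. The 20 proliferation genes had a median log2 difference of 0.85 between fresh nTregs and naive cells, with 11 higher and 0 lower. The 85 cytosolic ribosomal protein genes had a median of -0.46, with 3 higher and 47 lower, and the 77 oxidative phosphorylation subunits one of -0.01, with 3 higher and 4 lower. The part of these in the members' differences was not tested. Of the mitochondrial aminoacyl-tRNA synthetases 7 of 17 were lower, and Lars2 was higher by 6.23. Lars2 was at 10.7 and 9.74 FPKM in naive cells and at 1286 and 555 FPKM in fresh nTregs. Its fresh nTreg values lay far apart, and whether its fragments came from the messenger RNA of the synthetase was not tested. Of 16 translation factors, Slirp was higher (0.56) and Mrrf lower (-0.57).

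Between genotypes, 0 of the 76 genes were called across the 3 populations (limma, adjusted p under 0.05), with 0.258% of all genes tested higher and 0.116% lower in cKO. The smallest adjusted p among the members was 0.303, for Mrpl54, and 5 members had an unadjusted p under 0.05, against 12% of all genes. The members' median log2 difference was 0.06, against 0.01 for all genes. Of the 76, 56 were above 0 with the deposited FPKM and 43 with equal FPKM sums, against 53.8% and 39.9% of all genes. Without either stimulated library, 38 were above 0 and the median was 0.01, while 50% of all genes were above 0 without the WT and 49.9% without the cKO stimulated library. The difference was positive in all 3 populations for 14 members, against 19.6% of all genes, and negative in all 3 for 3 members, against 16.7%.

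The largest positive differences with the same sign in every population were those of Mrps24 (0.35 ± 0.13 SE), Mrpl23 (0.24 ± 0.08), Mrps10 (0.23 ± 0.10), Mrpl54 (0.21 ± 0.06) and Mrps5 (0.20 ± 0.06). Mrps24, the counterpart of bacterial S3, was at 26.8 FPKM in WT and 33.1 in cKO naive cells, 21.7 and 22.5 in freshly sorted nTregs, and 16.1 and 26.9 after stimulation. The difference was thus small in fresh nTregs, and 15.4% of the exon bases of Mrps24 overlap another gene on the same strand. Mrpl54 was at 47.5 and 53.1, 40.2 and 46.4, and 40.3 and 48.7 FPKM, with cKO above WT in each pair. Mrpl50 (-0.07), Mrps25 (-0.07) and Mrpl1 (-0.04) were lower in cKO in all 3 pairs of libraries and were not called.

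Within populations there was 1 library per genotype, and differences are values without a test. The members' median cKO minus WT difference was -0.01 in naive cells and 0.01 in fresh nTregs, where 0 members were 2-fold apart. Of all genes, 0.661% were 2-fold higher and 0.536% lower in cKO naive cells, and 0.634% higher and 0.395% lower in cKO fresh nTregs. In these 2 populations 34 and 40 of the 76 were above 0, against 49.8% and 50% of all genes. In stimulated nTregs the median was 0.18, against 0.04 for all genes, and 62 of 76 were above 0, against 55.2%. With equal FPKM sums this median was 0.03 and 42 members were above 0, against 34.5% of all genes. Less the median of all genes it was 0.15 on both scales. The median of the oxidative phosphorylation subunits in the same pair was 0.33 and that of the cytosolic ribosomal proteins 0.25.

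The 2 stimulated libraries differed in other ways as well. The median level of the proliferation genes was 14.7 FPKM in WT and 23.9 in cKO, and the sum of 4 NK cell markers was 21.95 and 65.7 FPKM, of which Nkg7 alone held 19.9 and 63.7 while Ncr1 and Klrb1c were at 0.218 FPKM or less in both. The part of these in the members' differences was not tested. Mrpl14, the counterpart of bacterial L14, was the 1 member 2-fold apart (1.21% of all genes were that much higher in cKO and 0.693% lower). It was at 8.60 FPKM in WT and 19.0 in cKO stimulated nTregs, against 12.6 and 9.63 in naive cells and 13.2 and 11.6 in freshly sorted nTregs. It was lower in cKO in the other 2 populations. The WT stimulated value of Mrpl14 was the lowest of the 6 and rests on about 31.0 fragments. Under equal FPKM sums, with equal medians or with a pseudocount of 5, it was no longer 2-fold apart.

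**Figure D4:**
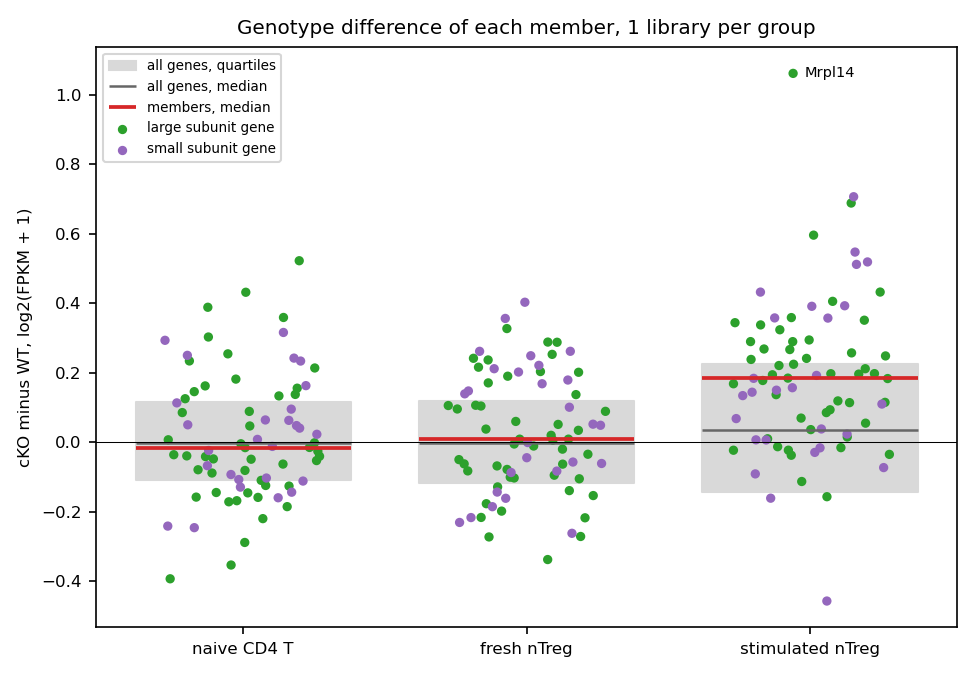
Points are the 76 genes, green for the large and purple for the small subunit, with the cKO minus WT difference in log2(FPKM + 1) on the vertical axis for each population (horizontal jitter only separates points). Red lines are the members' medians, -0.01, 0.01 and 0.18, and grey bands and lines are the quartiles and median of all genes. Mrpl14 stands at 1.06 in stimulated nTregs.

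The change on stimulation was compared between genotypes as a value without a test. The members' median change from fresh to stimulated nTregs was 0.20 in the WT pair of libraries and 0.40 in the cKO pair, with all genes at -0.06 and -0.03. It was above 0 in both genotypes for 53 members, against 38.6% of all genes. The cKO change minus the WT change had a median of 0.17, against 0.04 for all genes, and of 0.03 with equal FPKM sums. A response that differed by 2-fold or more was seen in 1 member, higher in cKO (0.868% of all genes, and 0.955% lower). The difference was largest for Mrpl14 (1.24), Mrpl28 (0.96) and Mrps16 (0.70) and lowest for Mrps15 (-0.72), Mrps2 (-0.42) and Mrps10 (-0.35). Mrpl28 was at 27.0 and 24.1 FPKM in naive cells, 19.8 and 16.2 in freshly sorted nTregs, and 15.8 and 26.0 after stimulation. Mrps15 was at 22.9 and 27.7 FPKM in fresh and 44.9 and 32.4 in stimulated nTregs.

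Mrps2 was the 1 member with a transcript under 0.1 FPKM in every WT and at 1 FPKM or more in every cKO library. This pattern was picked after its values were seen. Its second listed transcript was at 0.000321, 0.00119 and 0.0674 FPKM in the 3 WT libraries and at 2.98, 1.70 and 1.99 FPKM in the cKO libraries. Its first listed transcript, which held most of the gene's FPKM, was at 8.28 and 6.93, 7.52 and 7.51, and 19.0 and 15.0 FPKM. Of 14369 transcripts tested, 3 (0.0209%) were under 0.1 FPKM in every WT and at 1 FPKM or more in every cKO library, the others being transcripts of Tfdp2 and Snora41, and 1 showed the reverse. In a limma fit at the transcript level 0 member transcripts were called, and 5 were called in all. Both transcripts of Mrps2 (chr2:28465951-28471177) match the same GENCODE model, so the division of fragments between them is an estimate.

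**Figure D5:**
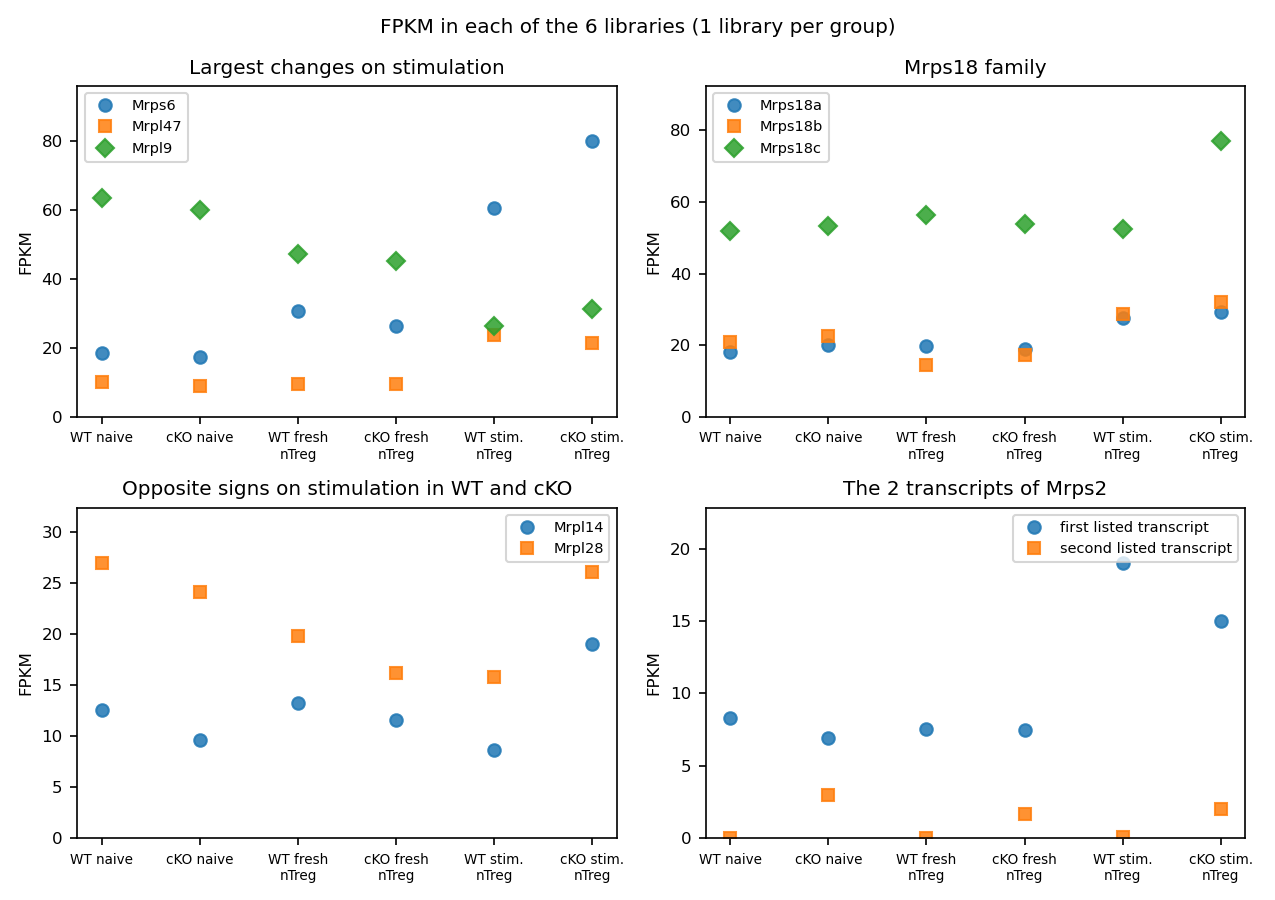
Points are FPKM in each of the 6 libraries, 1 library per group, for the largest changes on stimulation (Mrps6, Mrpl47 and Mrpl9), the Mrps18 family, Mrpl14 and Mrpl28, and the 2 transcripts of Mrps2. Vertical axes start at 0. Mrps6 reaches 60.6 and 79.9 FPKM after stimulation while Mrpl9 drops to 26.4 and 31.4, and the second Mrps2 transcript is near 0 in the 3 WT libraries.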

How the data were processed

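RNA from 6 populations of sorted mouse CD4 T cells, 2 genotypes by 3 populations with 1 library each, was sequenced after ribosomal RNA depletion with a strand-specific protocol, per the labels' protocols. The authors deposited FPKM per RefSeq transcript in 1 table of 6 columns. The submitters' processing notes name FastQC, TopHat, Cuffnorm, Cuffdiff and mm10. Versions and the Cuffnorm settings are not given in the sources used here. FPKM carry no read counts, so no count model was run, and the depth behind a value is an estimate.

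Rows listed more than once (165 transcripts, identical each time) were used once, and FPKM were summed per gene. Genes with at least 1 FPKM in at least 2 libraries (11224) were tested with limma 3.58.1 in R 4.3.3 on log2(FPKM + 1), with additive terms for population and genotype and a trend of variance on intensity. Fold changes on this scale understate those of low genes. The fit left 2 residual degrees of freedom and added 4.02 from the prior, and Benjamini-Hochberg adjusted p-values were taken over all genes tested, with calls at 0.05. Differences within a population have no replicate and no test. The fit was also run on simulated data, with independent noise of the fitted size and no differences of genotype or library scale. That run therefore does not test how such differences act on the calls. Other tools were Python 3.11.15, pandas 2.3.3, numpy 2.4.6 and matplotlib 3.10.9.

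Named genes were those with the largest changes among the called members, the highest and lowest levels, and the largest genotype differences with 1 sign in all populations, besides family members and genes named in the text as picked after their values were seen. The members and lists were chosen with earlier results of these data known. Alternatives were other pseudocounts (0.1 and 5), other filters, equal FPKM sums or medians, no intensity trend, a trend on transcript length removed, each library left out, and a shorter promoter window. A fit per transcript and changes of class for Mrpl47, Mrps18a and Mrps18b were added after the data were seen.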

Additional observations from a re-analysis of the deposited data

Results flagged for a closer look

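On stimulation, 18 of the 76 genes had opposite signs in the WT and the cKO pair of libraries, against 16.3% of all genes tested. In 16 the change was below 0 in WT and above 0 in cKO (9.29% of all genes), and in 2 it was the other way round (6.99%). The signs depend on the scale of the libraries, since 0 of the 76 had opposite signs with equal FPKM sums (11.2% of all genes) and 14 with equal medians (16.4%). The cKO change minus the WT change was 1.24 for Mrpl14 (-0.57 in WT and 0.67 in cKO), 0.96 for Mrpl28 (-0.31 and 0.65) and 0.70 for Mrps16 (-0.27 and 0.43), on the log2(FPKM + 1) scale. It was 0.65 for Mrps24, 0.61 for Mrps18c, 0.51 for Mrpl55, 0.47 for Mrpl30 and 0.40 for Mrps26. For Mrps14 and Mrps34 it was 0.37, for Mrpl52 and Mrps30 0.34, for Mrpl37 0.33, for Mrpl49 0.28, for Mrps9 0.23 and for Mrpl33 0.17. The 2 genes with a change above 0 in WT and below 0 in cKO were Mrps11 (-0.22) and Mrpl32 (-0.33). With 1 library per group, these differences were not tested.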

How the results depend on the processing

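The additive fit has 1 library per group, and the members' counts of calls depend on the scale and on single libraries. For fresh nTregs against naive cells, the members' median was -0.0863 with a pseudocount of 5, 0.0658 with equal FPKM sums (its sign turned), -0.14 with equal medians and -0.0829 with the length trend removed, and -0.15 to -0.11 with each library left out. Less all genes it was -0.12 to -0.0895 with libraries left out. Members called higher numbered 1 with no filter on low values, 10 with equal sums, 2 with no intensity trend and 0 to 7 with libraries left out, and members called lower numbered 3 with no filter, 2 with equal sums and 1 to 23. For stimulated against fresh nTregs, equal sums gave 73 members higher, 0 lower, a median of 0.80 and a change of 0.0865 for Mrps28 (its sign turned). No filter gave 1 lower and a median of 0.15 less all genes, and no intensity trend gave 1 lower. With libraries left out, 14 to 40 were higher and 1 to 8 lower. Between genotypes, the median with equal sums was -0.00141 in fresh nTregs (its sign turned), 0.0329 in stimulated nTregs and 0.0251 for the difference of the response. The 2-fold count in stimulated nTregs was 0 with a pseudocount of 5, equal sums or equal medians, and that of the response was 2 with a pseudocount of 0.1 and 0 with one of 5. Equal sums put the summed member FPKM at 1709 and 1715 in naive cells, 1820 and 1851 in freshly sorted nTregs and 3196 and 3378 after stimulation. In the bases before the start alone, 1 member held the YY1 letters. Apart from the filter, which changed the number of genes tested, and the left-out libraries, the cause was not tested. The fit has genotype as a term, so the populations were already compared within genotype.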
